A study of Mus musculus with 4 samples.

Results

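Solute carriers that move inorganic ions and metals across membranes were followed with 4 Agilent arrays of the mouse genome, each read in 2 colors, in sorted colon epithelial cells and in colon tissue. A gene was a member if its array name began with the family prefix Slc4a, Slc8a, Slc9a, Slc11a, Slc12a, Slc13a, Slc20a, Slc24a, Slc26a, Slc30a, Slc34a, Slc39a, Slc40a or Slc41a, which gave 90 of 27071 genes, carried by 155 of 41174 probes. The rule also takes in 3 genes that are not carriers, namely the scaffold proteins Slc9a3r1 and Slc9a3r2, which bind sodium-proton exchangers, and Slc4a1ap, a protein that binds an anion exchanger.

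All mice were C57BL/6. In the first experiment, epithelial cells of Axin2CreErt2/Rosa26-tdTomato mice were sorted 24 h after tamoxifen into td Tomato positive cells, in which the Axin2 promoter had driven recombination (Axin2+), and td Tomato negative cells (Axin2-). Cells of 3 mice were pooled and both pools were hybridised against each other on 2 arrays with the dyes reversed, so that these arrays hold 1 biological replicate and no p-value is given. In the second experiment, Myh11CreErt2/Rspo3 fl/fl mice, in which tamoxifen deletes the Wnt enhancer Rspo3 in Myh11-expressing myofibroblasts (Rspo3 KO), were compared 2 weeks later with Myh11CreErt2/Rspo3+/+ littermates that carry the same Cre. Each of the 2 Rspo3 arrays held 1 KO mouse against 1 control mouse, again with reversed dyes, and is called a pair here. The labels name the tissue as distal colon, and the methods of the study as colon. All values are log2 ratios of Axin2+ over Axin2- or of Rspo3 KO over control, unless they are named as levels, which are normalised log2 intensities of 1 channel and can be compared for 1 gene but not between genes.

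Carriers of this kind set the salt, acid and metal balance of the body at the surface of the gut. In the colon, surface cells take up sodium chloride by a sodium-proton exchanger that works beside a chloride-bicarbonate exchanger in the apical membrane, while crypt cells load chloride through a basolateral cotransporter and release it through an apical channel. Zinc, iron and manganese enter and leave cells through importers of the Slc39a and Slc11a families and exporters of the Slc30a and Slc40a families.

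Promoter sequences of members were read from RefSeq (GRCm38.p6), where 69 of the 90 members and 9 of the 16 members past 1.5-fold on the Axin2 arrays had an entry. The 250 bases before the start of transcription are shown for 3 genes that were lower in Axin2+ cells, Slc26a3 (chr12:31437969-31438218, plus strand), Slc9a3 (chr13:74121163-74121412, plus strand) and Slc30a10 (chr1:185454598-185454847, plus strand), because the first 2 act as the coupled exchangers of the surface and the third carries a metal. Capitals mark the letters TGCNCNC on either strand. They are a looser form of the metal response element core, TGCRCNC (R is A or G), so a match need not be a core.
Slc26a3: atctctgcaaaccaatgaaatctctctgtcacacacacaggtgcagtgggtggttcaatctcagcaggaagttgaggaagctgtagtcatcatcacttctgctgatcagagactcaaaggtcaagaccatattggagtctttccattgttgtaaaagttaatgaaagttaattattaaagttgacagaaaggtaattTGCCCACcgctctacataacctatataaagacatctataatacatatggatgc
Slc9a3: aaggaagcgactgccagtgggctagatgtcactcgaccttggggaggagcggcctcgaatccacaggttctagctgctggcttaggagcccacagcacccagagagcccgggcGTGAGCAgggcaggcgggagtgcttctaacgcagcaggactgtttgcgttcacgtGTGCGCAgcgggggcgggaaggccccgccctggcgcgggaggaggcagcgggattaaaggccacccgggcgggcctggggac
Slc30a10: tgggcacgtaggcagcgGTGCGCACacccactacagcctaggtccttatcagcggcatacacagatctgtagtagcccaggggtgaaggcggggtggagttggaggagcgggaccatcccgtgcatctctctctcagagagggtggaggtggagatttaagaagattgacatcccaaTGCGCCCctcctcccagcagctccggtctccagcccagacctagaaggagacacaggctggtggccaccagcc
The windows differ in composition, with 38.8% G and C bases for Slc26a3, 67.6% for Slc9a3 and 60.8% for Slc30a10, against a median of 59.6% over 87 member windows and 52.4% over all 32851 windows. TGCNCNC stood in 58.6% of member windows and in 44.4% of all windows. In Slc30a10 a match on each strand overlapped with its neighbour by all but 1 base, and these letters are short enough to be common. CTTTGAT, a TCF/LEF motif, was found in 0 of 87 member windows and in 3.21% of all windows. TTTATNG, a form of the CDX2 motif, was in 9.2% of member windows and 9.81% of all windows, and CAAAGNCCA, an HNF4A motif, in 2.3% and 1.7%. Both strands were searched. The letters are a description of these windows, and binding was not measured.

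In Axin2+ cells most of the measured carriers were lower than in Axin2- cells. Of the 90 members, 62 were measured, which means that 1 channel or both stood well above background on each array, and 43 of them were lower on both arrays, 12 higher on both and 7 opposite. Of all 15761 measured genes, 6589 were lower on both arrays, 6446 higher on both and 2726 opposite. The median ratio of the 62 members was -0.25 on array 1 and -0.33 on array 2, with a median of the gene means of -0.26, whereas the median of all 15761 measured genes was -0.0062. The mean of both arrays passed 1.5-fold in the same direction for 16 members, or 25.8%, against 14.8% of all measured genes. Of these, 14 were lower (22.6% of members, 6.97% of all genes) and 2 were higher (3.23% of members, 7.84% of all genes). All 16 were measured in both channels of both arrays. With median centring in place of loess, 11 members were lower and 0 higher, with Slc12a2 at 2.40 and -0.22. The ratios of the 62 members correlated between the arrays with Pearson's r = 0.97 and Spearman's rho = 0.91, a description of technical agreement, since both arrays share the same RNA. In pooled or bulk RNA, fewer cells of a type and less RNA per cell cannot be told apart.

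**Figure D1:**
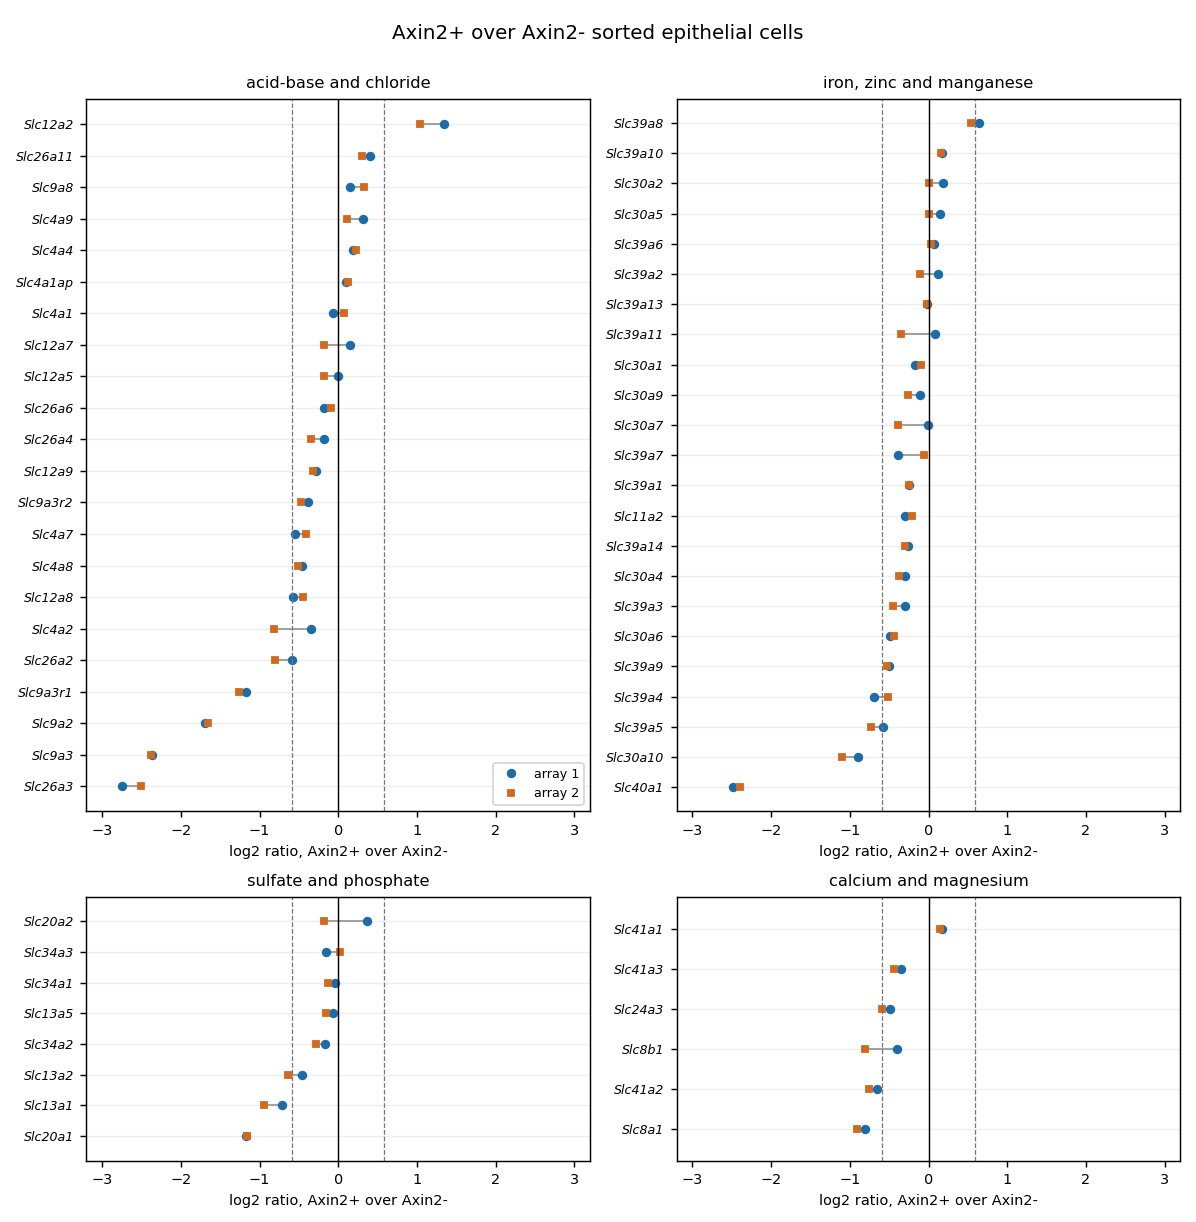
Log2 ratios of Axin2+ over Axin2- cells (x axis) of 59 of the 62 measured members (y axis, sorted by their mean) in 4 groups by what they carry, with array 1 as circles and array 2 as squares, and dashed lines at 1.5-fold. Slc26a3, Slc9a3, Slc9a2 and Slc40a1 lie far to the left on both arrays, and Slc12a2 alone lies beyond 1 to the right.

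The exchangers for sodium chloride uptake were among the members with the lowest ratios. Slc26a3, the chloride-bicarbonate exchanger of the colon surface, had a level of 8.61 in Axin2+ and 11.37 in Axin2- cells on array 1 and of 8.74 and 11.24 on array 2. Its ratio was -2.75 and -2.50 (mean -2.63 ± 0.18, SD of 2 technical arrays), so it was 6.18-fold lower in Axin2+ cells. This probe lies at chr12:32137633-32137692 (mm9), and the means of the gene's 3 measured probes ran from -2.87 to -0.47. Slc9a3, the apical sodium-proton exchanger NHE3, had levels of 7.51 and 9.89 on array 1 and of 7.69 and 10.06 on array 2 in Axin2+ and Axin2- cells. Its ratio was -2.37 and -2.38, or 5.18-fold lower, from a probe at chr13:74306729-74306788 (mm9). A dimmer Slc9a3 probe, whose Axin2+ channel was not well above background on either array, gave -0.51. Both channels of both exchangers were separated by more than 2 on the log2 scale on each array.

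Slc9a2, another apical sodium-proton exchanger, was lower as well, with ratios of -1.69 and -1.65 (3.19-fold lower) from levels of 10.70 against 12.39 and 10.72 against 12.37. Its other probe gave a mean of -0.997. Slc9a3r1, the scaffold NHERF1 that holds NHE3 at the apical membrane, stood at -1.17 and -1.27, or 2.33-fold lower. Slc26a2, an apical sulfate carrier, was lower at -0.58 and -0.81, and its other probe, a dimmer one, at -1.44. Slc9a8, a further sodium-proton exchanger, had a mean of 0.23, but the means of its 3 measured probes ran from -0.17 to 0.55.

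Among bicarbonate transporters, 0 of the 7 measured members of the Slc4a prefix passed 1.5-fold, against 14.8% of all measured genes. The 7 include Slc4a1ap, which is not a carrier, and with so few genes a count of 0 is near that share. Slc4a2, a basolateral anion exchanger, stood at -0.34 and -0.81, and Slc4a7, a sodium-bicarbonate cotransporter, at -0.56 and -0.41, both lower on both arrays but below the threshold in the mean. Slc4a7 probes disagreed in sign. Slc4a4, the basolateral sodium-bicarbonate cotransporter NBCe1, was at 0.19 and 0.22, and its probes disagreed in sign as well. Slc26a6, an anion exchanger of many epithelia, was at -0.18 and -0.10.

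Slc12a2 stood on the other side. This cotransporter, NKCC1, loads sodium, potassium and chloride into crypt cells for secretion. It had a level of 10.82 in Axin2+ and 9.47 in Axin2- cells on array 1 and of 10.63 and 9.60 on array 2, with ratios of 1.34 and 1.03 (mean 1.19 ± 0.22, SD of 2 technical arrays, 2.28-fold higher). Among the 6 measured cation-chloride cotransporters it was the 1 member past 1.5-fold. Slc12a8 and Slc12a9 had means of -0.51 and -0.30, and Slc12a7, a potassium-chloride cotransporter, was at 0.14 and -0.18.

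**Figure D2:**
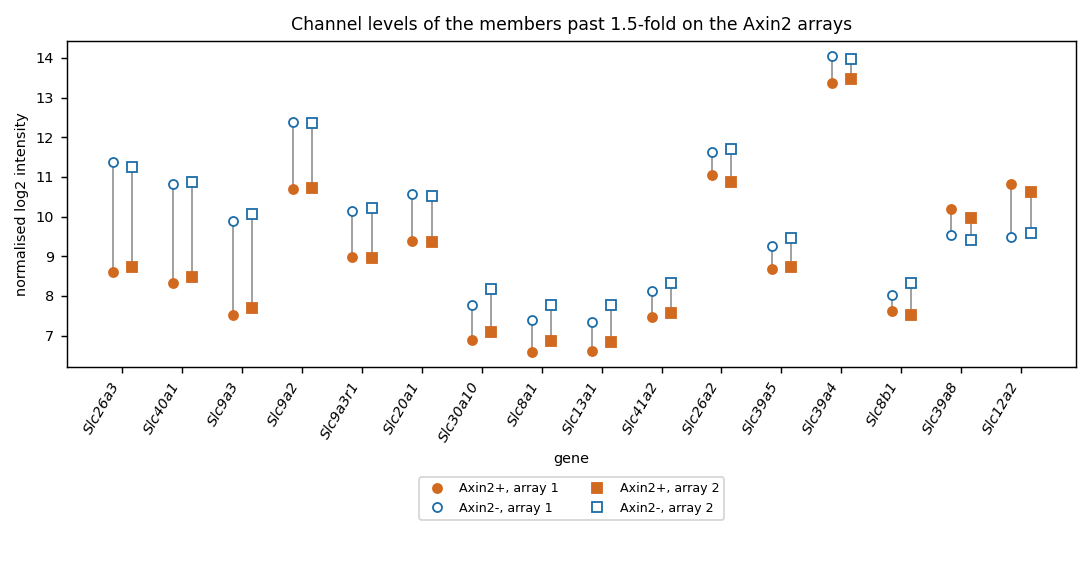
Normalised log2 intensities (y axis) of the 16 members past 1.5-fold in Axin2+ cells (filled) and Axin2- cells (open) on array 1 (circles) and array 2 (squares), ordered by mean ratio, with a line joining both channels of an array. Levels compare both cell populations within a gene, and the filled symbols lie below the open ones for 14 genes and above them for Slc39a8 and Slc12a2.

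Carriers of phosphate and sulfate gave 2 members lower past 1.5-fold of 8 measured, where 6.97% of all genes were lower. Slc20a1, the phosphate carrier PiT-1, had levels of 9.38 against 10.56 on array 1 and 9.36 against 10.52 on array 2, with ratios of -1.18 and -1.17 (2.25-fold lower). Its other probe gave a mean of -0.14, so the size of this difference depends on the probe. Slc20a2, the related carrier PiT-2, had ratios of 0.36 and -0.18. Slc13a1, a sodium-sulfate cotransporter, was lower at -0.72 and -0.94, though its levels of 6.62 and 6.83 in Axin2+ cells lie close to the dim end of the arrays. Slc13a2, a carrier of citrate and other dicarboxylates, was not well above background in Axin2+ cells on either array. Its ratios were -0.46 and -0.63, or 1.46-fold lower there.

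For calcium and magnesium, 3 of 6 measured members were lower past 1.5-fold and 0 were higher, against 6.97% and 7.84% of all genes. Slc8a1, the plasma membrane sodium-calcium exchanger, was at -0.80 and -0.91 (1.81-fold lower), and the means of its 5 measured probes ran from -0.86 to -0.25. Slc41a2, a magnesium transporter, was at -0.66 and -0.76, while its relatives Slc41a3 and Slc41a1 had means of -0.40 and 0.16. Slc8b1, the mitochondrial sodium-calcium exchanger, listed on the Rspo3 arrays under its older name Slc24a6, was at -0.40 and -0.80 and passed 1.5-fold by the mean only.

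Among the iron, zinc and manganese carriers, 4 of 23 measured members were lower past 1.5-fold and 1 was higher, against 6.97% and 7.84% of all genes. Slc40a1, ferroportin, the iron exporter of the cell, had a level of 8.33 in Axin2+ and 10.81 in Axin2- cells on array 1 and of 8.47 and 10.87 on array 2. Its ratios of -2.49 and -2.40 (mean -2.44 ± 0.062, SD of 2 technical arrays, 5.43-fold lower) came from its single probe, at chr1:45965255-45965314 (mm9). Slc11a2, the iron importer DMT1, differed less, at -0.30 and -0.21. The macrophage metal transporter Slc11a1 was not measured in the sorted cells.

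Slc30a10, a manganese exporter, was 1.99-fold lower, with ratios of -0.90 and -1.09, and its second probe gave a mean of -0.76. The zinc importers Slc39a4, of the apical membrane, and Slc39a5, of the basolateral membrane, were lower at -0.69 and -0.52 and at -0.58 and -0.73. Slc39a8, an importer of zinc and manganese, was higher, with levels of 10.18 against 9.54 on array 1 and 9.96 against 9.41 on array 2 and ratios of 0.64 and 0.55 (1.51-fold). That value is the one of its brightest probe, and the means of its 3 probes ran from 0.096 to 0.59. With the mean over probes, Slc39a8 and Slc8a1 no longer passed 1.5-fold. The remaining zinc exporters stayed within 1.5-fold, including Slc30a1, the plasma membrane exporter, at -0.17 and -0.10, as did Slc39a14 at -0.26 and -0.30.

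Other proteins of the same pathways were taken from lists by function. Of 15 measured genes of salt transport outside the carrier families, 4 were higher past 1.5-fold and 7 lower, against 7.84% and 6.97% of all genes. The higher ones were the chloride channel Cftr (1.05) and the potassium channel genes Kcnq1 (1.17), Kcne3 (1.001) and Kcnn4 (0.63), which serve chloride secretion. The lower ones were the carbonic anhydrases Car4 (-3.12) and Car1 (-1.89), the chloride channels Ano1 (-1.57) and Best2 (-1.42), the sodium channel subunits Scnn1a (-1.32) and Scnn1b (-0.60) and the colonic proton-potassium pump Atp12a (-1.11). Atp1b1 (-0.24) and Atp1b3 (0.34), beta subunits of the sodium pump, stayed within 1.5-fold.

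Of 8 measured regulators of transporters, Wnk1, a kinase upstream of the cation-chloride cotransporters, was higher (0.64), and the scaffold Pdzd3 (-0.67) and the steroid dehydrogenase Hsd11b2 (-1.08) were lower. Of 14 measured genes of metal handling, the ferritin heavy chain Fth1 (-1.02) and the copper importer Slc31a1 (-0.66) were lower and 0 were higher, and the median of this list was -0.04. Transferrin receptor Tfrc, at 0.50, did not pass 1.5-fold. Of 9 measured genes for calcium, magnesium and phosphate, 4 were lower, the calcium channel Trpv6 (-0.88), the calcium-binding protein S100g (-2.24), the calcium pump Atp2b1 (-0.67) and Cnnm4 (-0.70), which exports magnesium, and 2 were higher, the vitamin D receptor Vdr (0.59) and the channel Trpm7 (0.72).

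**Figure D3:**
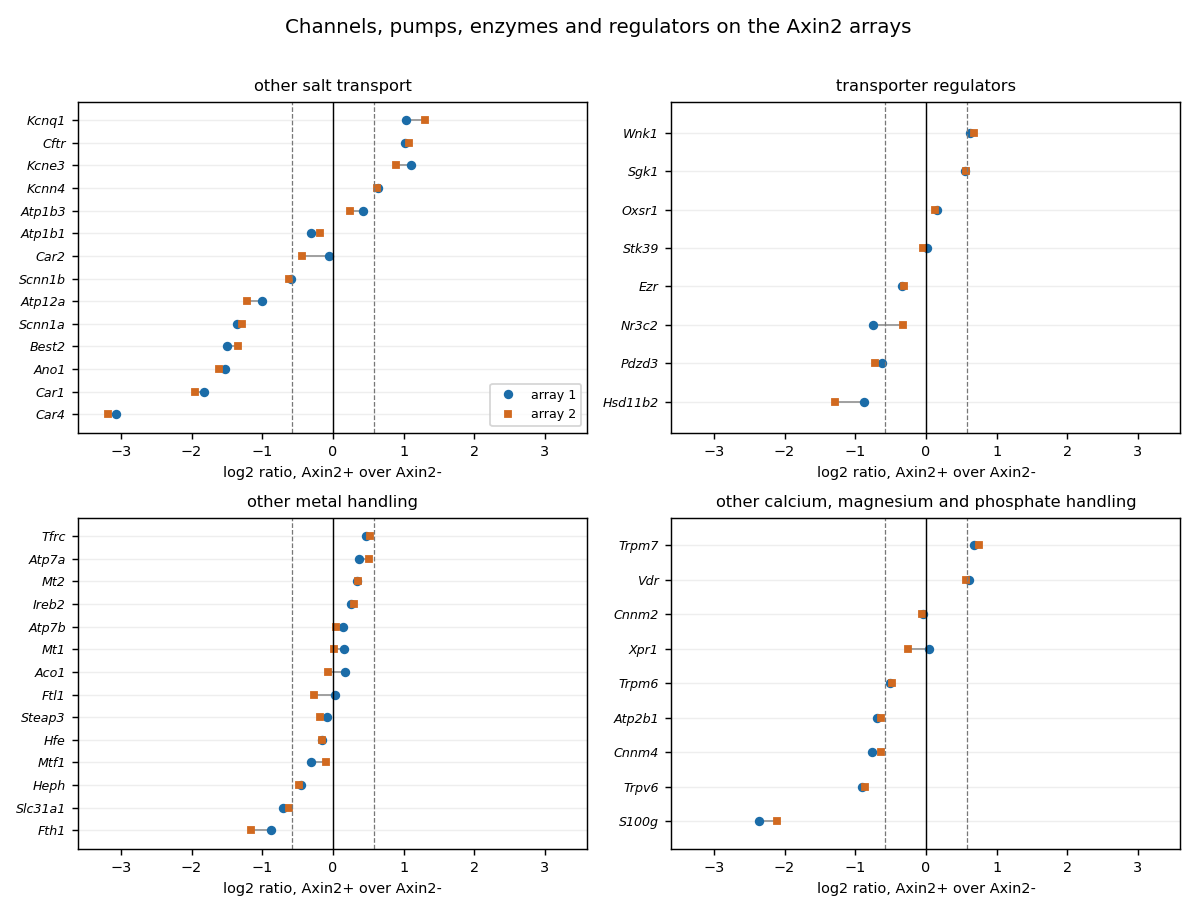
Log2 ratios of Axin2+ over Axin2- cells (x axis) of channels, pumps, enzymes and regulators (y axis) in 4 lists, with array 1 as circles, array 2 as squares and dashed lines at 1.5-fold. Kcnq1, Cftr, Kcne3 and Kcnn4 lie to the right of the upper dashed line, and Car4, S100g and Car1 farthest to the left.

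Cell type markers moved in the same comparison. The 7 surface colonocyte markers had a median of -2.29 and 5 of them were lower past 1.5-fold, among them Aqp8 (-2.94) and Krt20 (-2.89), while 4 of 5 crypt base markers were higher, with Axin2 at 1.32 and Lgr5 at 1.53. The 5 enteroendocrine markers had a median of -2.58 and 3 of 5 goblet cell markers were lower, although Muc2 was at 0.32. The part of cell type composition in the ratios of the carriers was not tested. Of the 7 epithelial markers, all measured, Krt8 (-0.83) and Krt19 (-0.67) were lower past 1.5-fold, and Krt18 (0.39), Cdx2 (0.41), Epcam (0.03), Cdh1 (0.07) and Vil1 (-0.16) were not. Of the markers of cells outside the epithelium, 3 of 6 for smooth muscle, 2 of 5 for fibroblasts, 0 of 4 for endothelium, 4 of 5 for macrophages, 4 of 4 for B cells, 3 of 6 for neurons and glia and 2 of 4 for red blood cells were measured. Among these, Hba-a1 (-1.35) and Uchl1 (-0.63) were lower past 1.5-fold and the others were within it.

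In the colon of Rspo3 KO mice the measured carriers showed no common direction. Of the 90 members, 61 were measured, and the ratios of 20 were higher in both pairs, of 13 lower in both and of 28 opposite. Of all 15288 measured genes, 3100 were higher in both pairs, 3644 lower in both and 8544 opposite. The median of the 61 members was 0.08 in pair 1 and -0.01 in pair 2, and -0.03 for the gene means, against -0.01 for all measured genes. Both pairs had a Pearson's r of 0.07 and a Spearman's rho of -0.04 over the 61 members and of 0.03 and -0.12 over all genes. The median difference between the pairs was 0.29 for a member, and the largest 2.03.

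The mean passed 1.5-fold in the same direction in both pairs for 4 members, or 6.56%, against 4.3% of all measured genes. Of the members, 2 were higher, where 1.85% of all genes were, and 2 were lower, where 2.45% of all genes were. With median centring, 1 member was higher and 0 were lower. limma's test with Benjamini-Hochberg adjustment over all genes called 0 members and 0.229% of all genes at 0.05. At an unadjusted p under 0.05 the same test passed 4 members, the same 4 genes, and 4.58% of all genes.

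Slc9a3 had the largest ratio of all members. Its level was 10.03 in the KO mouse and 8.68 in the control mouse of pair 1, and 10.15 and 8.32 in pair 2, so that both KO mice were above both control mice. The ratios of 1.35 and 1.83 gave a mean of 1.59 (limma's moderated SE 0.24, n = 2 pairs), or 3.01-fold higher in the KO mice. limma's p was 0.000219 and its adjusted p 0.0743, and the adjusted p ran from 0.0039 to 1 over the other processing settings that used these 2 arrays alone. The lowest value came with a normexp offset of 16 and the highest with median centring, under which the ratios were 2.01 and 1.29. A limma fit over all 4 arrays with a dye term gave an adjusted p of 0.00105, but its dye estimate and its spread rest in part on the technical dye swap of the Axin2 pools. A second Slc9a3 probe was not well above background on either array.

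The other 3 members past 1.5-fold were weaker. Slc30a7, a zinc exporter of the Golgi, was at 1.14 and 0.23 (mean 0.68, moderated SE 0.28, limma adjusted p = 0.99975), and the means of its 3 probes ran from -0.19 to 0.68. Slc12a8, of the cation-chloride cotransporter family, was at -0.94 and -0.28 (mean -0.61, moderated SE 0.26, limma adjusted p = 0.99975). Slc30a2, a zinc exporter of vesicles, was at -0.76 and -0.56 (mean -0.66, moderated SE 0.23, limma adjusted p = 0.83), with a KO level that was not well above background in pair 2. These 3 did not pass 1.5-fold alike in both pairs with median centring or with the background fitted to all spots.

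**Figure D4:**
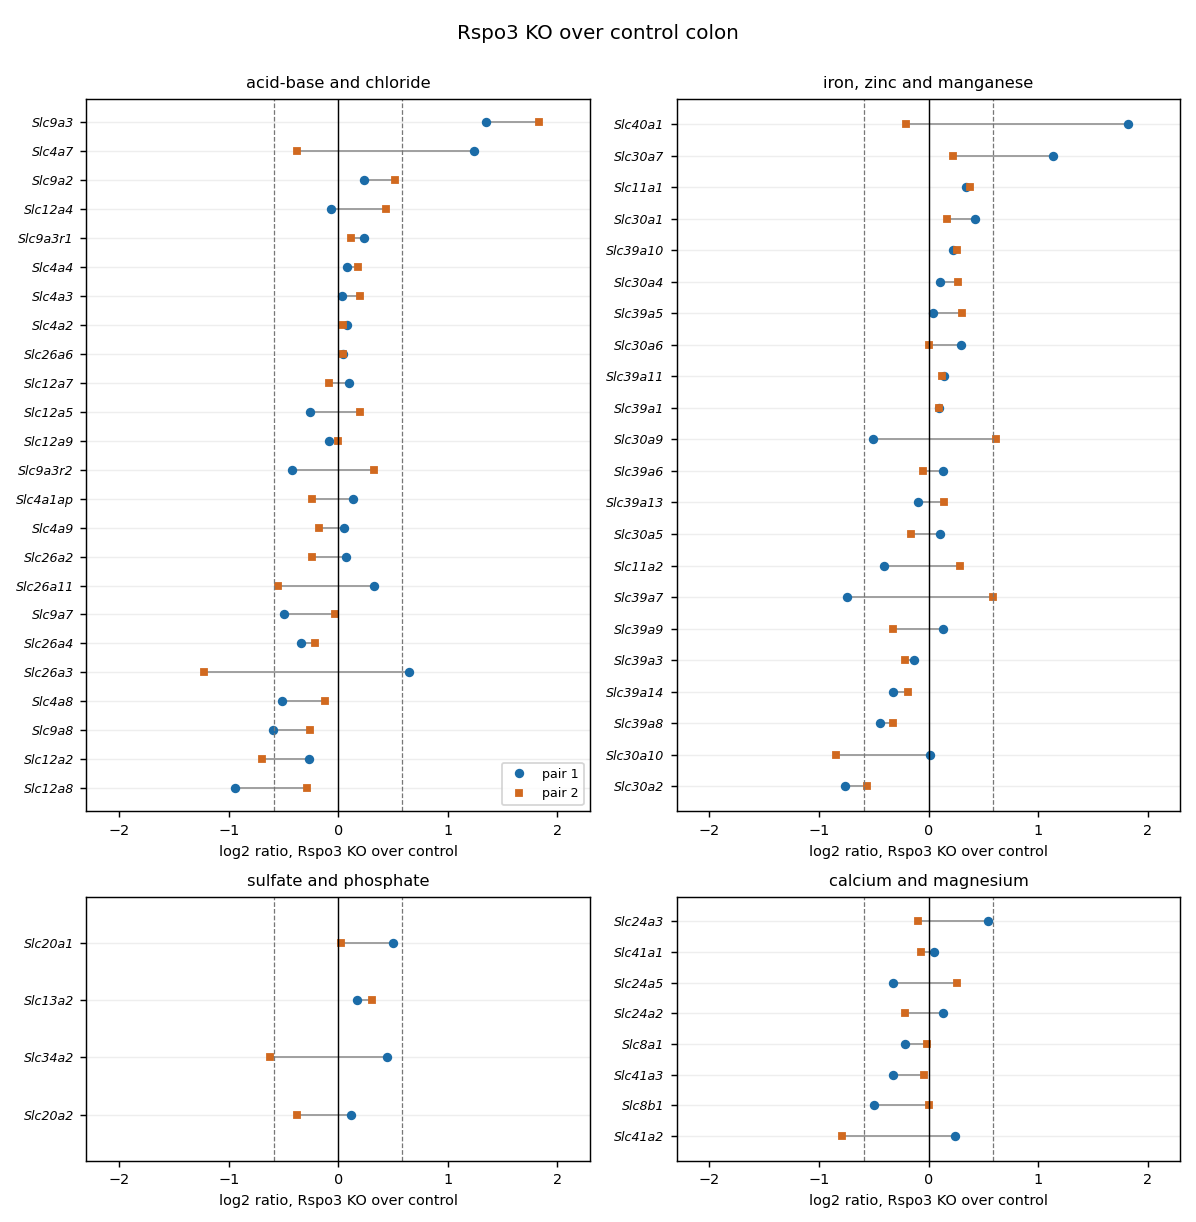
Log2 ratios of Rspo3 KO over control colon (x axis) of 58 of the 61 measured members (y axis, sorted by their mean), with pair 1 as circles and pair 2 as squares and dashed lines at 1.5-fold. Slc9a3 is the only member with both pairs beyond a dashed line on 1 side, and the pairs of Slc40a1, Slc4a7 and Slc26a3 lie on either side of 0.

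Several carriers with large ratios on the Axin2 arrays were opposite between the pairs. Slc40a1 was at 1.82 in pair 1 and -0.21 in pair 2, from levels of 14.70 against 12.88 and of 13.96 against 14.18 in KO and control. Slc26a3 was at 0.65 and -1.23, and the second of its bright probes at 0.68 and -0.54. Slc30a10 was at 0.02 and -0.84, Slc26a2 at 0.07 and -0.24 and Slc41a2 at 0.25 and -0.79. Slc4a7, which did not pass 1.5-fold in the sorted cells, was at 1.24 and -0.38. By the probe used for each of these genes, the KO mouse was above its control in pair 1 and below it in pair 2. Slc8b1, also past 1.5-fold on the Axin2 arrays, was opposite in the other order, at -0.50 and 0.0070. Other probes of Slc26a2 (0.36 and 0.19), Slc4a7 (1.46 and 0.0070) and Slc30a10 (-0.05 and -0.85) did not change sign.

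Among the carriers of salt and acid that kept a direction, Slc9a2 was at 0.23 and 0.52 and Slc12a2 at -0.27 and -0.70. Their means of 0.38 (moderated SE 0.23) and -0.48 (moderated SE 0.24) had limma adjusted p values of 0.99975. The Slc9a2 value comes from a dimmer probe than in the sorted cells, since its brighter probe was marked as an outlier in pair 1. Slc9a8 was at -0.60 and -0.25, while its other measured probe had a mean of 0.0067. Slc4a2 and Slc4a4 had means of 0.06 and 0.13, Slc26a6 of 0.04 and Slc12a7 of 0.01.

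Metal carriers without a call included Slc11a1, at 0.34 and 0.38, and Slc39a8, at -0.44 and -0.33, which differed little between pairs. Slc30a1 was at 0.43 and 0.17, Slc39a5 at 0.04 and 0.30, and Slc39a14 at -0.32 and -0.19. Slc11a2 was at -0.41 and 0.28, and its probes disagreed in sign. The bright spot of Slc39a4 was marked as non-uniform in pair 1, and with that spot kept the gene was at 0.04 and 0.34. Of the other carriers in the named set, Slc20a1 was at 0.50 and 0.03 by the dimmer of its probes, as the brighter one was marked as an outlier in pair 1, Slc20a2 at 0.12 and -0.38 and Slc41a1 at 0.05 and -0.06.

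**Figure D5:**
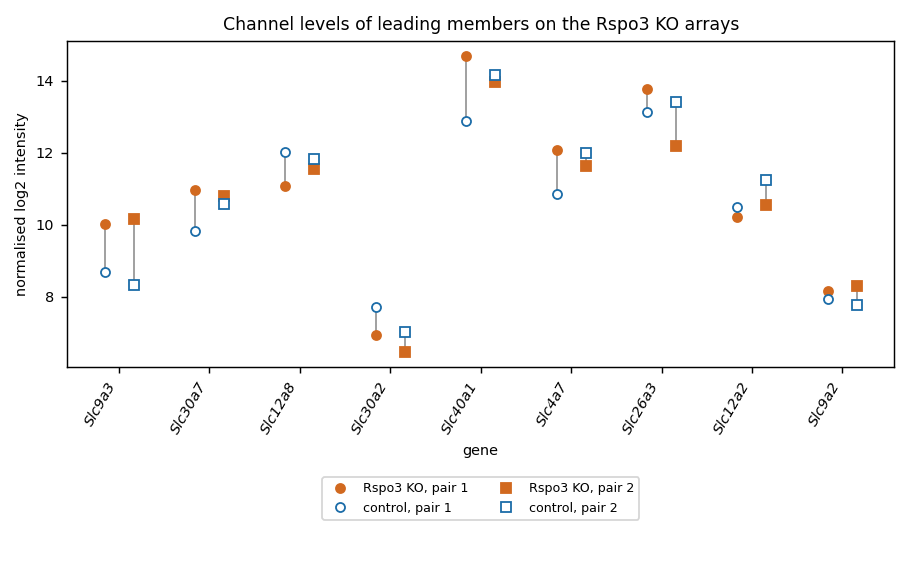
Normalised log2 intensities (y axis) of 9 members in Rspo3 KO (filled) and control (open) colon, with pair 1 as circles and pair 2 as squares and a line joining the mice of a pair. Slc9a3 has both KO mice above both control mice, while for Slc40a1, Slc4a7 and Slc26a3 the order of KO and control differs between the pairs.

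The pathway lists had 14 genes of salt transport, 8 regulators, 14 of metal handling and 9 for calcium, magnesium and phosphate measured in the colon. Of these, 5 genes passed 1.5-fold alike in both Rspo3 pairs, all of them lower and none at a limma adjusted p under 0.05. Of all genes, 2.45% were lower past 1.5-fold in both pairs. They were Kcnq1 (-0.92), Atp12a (-0.67), Best2 (-1.03), the scaffold Pdzk1 (-0.74) and S100g (-0.91), with limma adjusted p values between 0.31 and 0.85. None of the 14 measured metal handling genes passed. Cftr had a mean of 0.20 and Car4 ratios of 1.01 and -0.30.

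Both experiments measured 14 of the 16 members past 1.5-fold on the Axin2 arrays. In the Rspo3 colon, 7 of these (50%) had the other sign in both pairs, 1 (7.14%), Slc8a1, the same sign in both pairs, and 6 (42.9%) opposite pairs. The shares over all 2212 genes of this kind were 33.1%, 14.9% and 52%. These counts rest on 1 probe for each gene. By other measured probes, Slc8a1 (0.20 and 0.0023) and Slc26a2 (0.36 and 0.19) had the other sign in both pairs, and Slc30a10 (-0.05 and -0.85) the same sign. The 7 genes were Slc9a3, Slc9a2, Slc9a3r1, Slc20a1 and Slc39a5, lower in Axin2+ cells and higher in KO colon, and Slc12a2 and Slc39a8, higher in Axin2+ cells and lower in KO colon, and of these only Slc9a3 passed 1.5-fold in the KO colon. Slc9a2 and Slc20a1 were read by different probes in the sorted cells and in the colon. On the Axin2 arrays, the colon probe of Slc20a1 gave 0.024 and -0.31, without a common direction, and that of Slc9a2 a mean of -0.997. Over the 55 members measured in both experiments, the mean ratios had a Pearson's r of -0.48 and a Spearman's rho of -0.20. With pair 1 the r was -0.51 and with pair 2 -0.17, and without Slc9a3 and Slc40a1 it was -0.16. Genes are not independent replicates, and this is a description of these arrays.

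Other markers moved with the Rspo3 KO. All 5 crypt base markers were lower in both pairs (median -1.28 and -0.95), with Lgr5 at -1.94 and 4 of the 5 past 1.5-fold. The 3 measured B cell markers had a median of -1.89, and the red blood cell genes Hba-a1 and Alas2 were at 1.46 and 1.01. Surface colonocyte markers had a median of 0.34 in pair 1 and -0.03 in pair 2 over 4 of 7 measured genes, of which 1, Guca2b (-0.72), passed 1.5-fold. Of the 5 measured epithelial markers, Cdx2 was higher (2.33 and 1.91, mean 2.12, limma adjusted p = 0.022) and the other 4 were within 1.5-fold. Of the 5 enteroendocrine markers, Chga (-0.66) and Gcg (-0.61) were past 1.5-fold, and of the 5 macrophage markers Adgre1 (0.69) was. The measured markers of goblet cells (2 of 5), endothelium (4 of 4) and neurons and glia (5 of 6) had 0 genes past 1.5-fold. For smooth muscle, 5 of 6 markers were measured, with a median of 0.24, and the 5 fibroblast markers had a median of 0.31, so that the tissue held cells outside the epithelium. The part of these cell types in the ratio of Slc9a3 or of other carriers was not tested. Rspo3 itself has 2 probes, of which 1 was above background on 1 of the 2 Rspo3 arrays, at 0.17, and where it lies relative to the deleted part is not given in the sources used here.

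In all, 55 members were measured in both experiments, 6 in the Rspo3 colon alone, 7 in the sorted cells alone and 22 in neither. The 22 include the kidney cotransporters Slc12a1 and Slc12a3, the gastric and inner ear anion exchangers Slc26a9 and Slc26a5 and the islet zinc exporter Slc30a8. Across the 4 arrays, between 53.1% and 60.3% of the gene spots of a channel were well above background.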

How the data were processed

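The labels and the methods of the study assigned each array to the Axin2+ and Axin2- comparison (1 technical dye swap of pooled cells) or to the Rspo3 KO and control comparison (2 pairs of mice). The authors labelled the RNA, scanned the arrays and extracted signals with Agilent Feature Extraction (A.11.5.1.1). The authors deposited, for each spot, linear signal and background intensity values of both dyes together with a log10 ratio (Cy5 over Cy3) from the software, which the series table repeats. The software's p-value columns were not used.

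Here the background was corrected by normexp with an offset of 50, with the fit leaving out spots with a background outlier, and within-array loess in limma (3.58.1, R 4.3.3) gave log2 ratios. Outlier spots were left out. Ratios from the deposited intensity values were turned to Rspo3 KO over control and Axin2+ over Axin2-, spots of a probe were averaged, and each gene took the value of the brightest of its probes. It counted as measured where 1 channel or both of that probe stood well above background on each array of the experiment. Symbols came from a RefSeq table (GRCm38.p6), in which 28689 probes matched through their accession, 5333 through the symbol and 346 through an older symbol, while 6806 kept the array's name. Probe positions are those of mm9, as the array files list them. The array annotation named 154 member probes on the Rspo3 slide and 140 on the Axin2 slide, and a probe named so on either was used.

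A gene was counted as changed past 1.5-fold if its mean passed that size and both arrays had the same sign. Rspo3 ratios were also tested against 0 with limma (lmFit, eBayes) and Benjamini-Hochberg adjustment over all measured genes at 0.05, with 1 residual and 6.67 prior degrees of freedom. The SE values are limma's moderated errors, which lean on the spread over all genes and not on the pairs of a gene alone. The script was tested on simulated data. In 5 simulations of the Rspo3 test, between 4.3% and 19% of the genes called at an adjusted p under 0.05 were false calls. Genes named are the members past 1.5-fold, the 8 members with the largest mean ratio in each experiment, a set of 23 carriers of known colon function, and list members. Slc12a9, Slc13a2 and Slc41a3, and the members under the other observations below, were named outside these rules. The members and lists were chosen with earlier results of these data known. As alternatives, ratios were taken from the software or from the series table, or made with no background correction, an offset of 16, a background fit to all spots, median centring, other filters, the mean over probes, each array alone, a fit of 4 arrays with a dye term and a 2-fold threshold. Leaving out background outlier spots, keeping outlier spots and requiring 1.5-fold on each array were chosen after seeing the data. Both arrays of an experiment lay on 1 slide. The number of arrays limits the precision. The values of 3 members and of 1 list gene are not reported here.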

Additional observations from a re-analysis of the deposited data

How the results depend on the processing

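On the Axin2 arrays, the 16 members past 1.5-fold all kept the direction of their mean under every alternative that changed the signals, the normalisation, the filter or the probes. With median centring 9 of them still passed alike on both arrays (not Slc12a2, Slc26a2, Slc39a4, Slc39a5, Slc39a8, Slc41a2 and Slc8b1), and with the mean over probes 14. Their number became 28 with the software's log ratios or the series table (the same values) and 7 at a 2-fold threshold, and 13 to 18 with 1 array alone. The median ratio of members became -0.49 with the software's ratios or the series table, -0.34 with an offset of 16 and -0.10 without a filter on dim probes, and was -0.33 to -0.25 with 1 array alone. Of all genes, 2335 passed 1.5-fold, against 5120 with the software's ratios and 1076 with median centring. For Rspo3 KO, the 4 members past 1.5-fold became 7 with the software's ratios or the series table, 1 with the background fitted to all spots, 1 with median centring, 1 at a 2-fold threshold and 1 when each pair had to pass 1.5-fold, and 8 to 9 with 1 pair alone. The median was -0.0113 to 0.0776 with 1 pair alone. The 0 members past limma's adjusted p became 2 with the software's ratios or the series table (Slc9a3 and Slc30a2), and 1 with no background correction, with an offset of 16, with both channels above background and with 4 arrays and a dye term (Slc9a3). Of all genes, 658 passed 1.5-fold in both pairs, against 1460 with the software's ratios and 357 with the background fitted to all spots, and limma called 35, against 125, 1 and, with the dye term, 273. The cause of these shifts was not tested. Among single named members, 99 values moved by more than the spread between arrays, 378 did not and 0 changed the direction of a called member. The 378 include all values with 1 array alone, which by construction could neither move past this spread nor reverse a called member. The software's ratios and the series table hold the same values and were both counted. No paired analysis was possible because each array already sets the mice of 1 pair against each other, which leaves no block to add. Members that were dim on the arrays (28 in each experiment) have no level here.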

Other observations

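Among members that no rule named, Slc26a11, a sulfate carrier of lysosomes, was higher in Axin2+ cells on both arrays, at 0.40 and 0.30, while Slc26a4 was at -0.18 and -0.35. Slc24a3, a potassium-dependent sodium-calcium exchanger, was at -0.48 and -0.59 in Axin2+ cells and at 0.54 and -0.09 in the Rspo3 pairs. Zinc carriers of internal membranes gave small ratios in Axin2+ cells, with means of -0.51 for Slc39a9, -0.46 for Slc30a6, -0.34 for Slc30a4, -0.23 for Slc39a7 and 0.08 for Slc30a5. These genes were chosen after their values were seen.

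Of the members with more than 1 measured probe, the probes disagreed in sign for 11 of 25 genes in the Rspo3 colon and for 9 of 28 genes in the sorted cells. Slc39a7 was at -0.74 and 0.59 in the Rspo3 pairs, and Slc30a9 at -0.50 and 0.62.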
